A study of Mus musculus with 9 samples.

Results

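The genes described here make and supply DNA during S phase: 43 genes of origin recognition, helicase loading and activation, DNA polymerisation, Okazaki fragment maturation and deoxynucleotide supply. They were listed by name, and each was read from the probe set with exactly that gene symbol and the highest mean over 9 arrays. All 43 were on the arrays, out of 18194 genes with a single-symbol probe set, and all 43 were among the 12866 genes tested, which needed a value over the 40th percentile of the array on 3 or more of the 9 arrays. The list holds 3 origin recognition genes, 3 genes of helicase loading and its inhibition, 6 genes of the MCM helicase core, 6 of helicase activation, 8 of primase and the polymerases, 6 of the sliding clamp and its loader, 3 of the single-strand binding protein, 3 of Okazaki fragment maturation and 5 of nucleotide supply.

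Before each S phase, the origin recognition complex, Cdc6 and Cdt1 load the MCM complex onto DNA, and geminin blocks a second loading in the same cycle. Cdc45, the GINS complex and Mcm10 then turn the loaded complex into an active helicase, behind which primase and the polymerases copy the strands while ribonucleotide reductase, thymidylate synthase and thymidine kinase supply the deoxynucleotides. Many of these genes are transcribed at the start of S phase under E2F transcription factors, and C/EBPα, the transcription factor encoded by Cebpa, is known to restrain E2F activity and proliferation in maturing granulocytes.

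The arrays, Affymetrix mouse expression arrays hybridised with biotin-labelled cRNA from 5 ug of total RNA, came from 3 groups of C57/BL6 mice aged 2 to 4 months, with 3 arrays each. K/L cells came from leukaemic mice labelled K/L, which as background knowledge of this model stands for a pair of mutant Cebpa alleles, Sox4 cells came from leukaemic mice that overexpress Sox4, a transcription factor, and wild type cells came from wild type mice. All were sorted myeloid progenitors of the fraction called FrII, negative for lineage markers and Sca-1, positive for c-Kit and with low or positive Mac1, with blood given as the tissue. The labels list a CD45.1-negative, CD45.2-positive gate in the protocol and in the names of the leukaemic samples, and whether wild type cells passed it is not settled. The labels do not say how Sox4 was overexpressed, which host cells remained in the leukaemic mice, or whether the 3 arrays of a leukaemic group are separate leukaemias. Titles speak of mice and descriptions of 1 numbered mouse, so n counts arrays, and p-values measure the spread between these arrays, which may be partly technical. In sorted cells measured in bulk, fewer cells in S phase and less RNA per cell cannot be told apart.

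Sox4 itself was at 10.67 ± 0.18 in K/L cells and 9.74 ± 0.13 in Sox4 cells, against 3.87 ± 0.08 in wild type cells (log2 intensity, SD, n = 3 each). Its level in the group named for Sox4 was therefore below that in K/L cells. The Cebpa signal averaged 10.56 in K/L cells and 10.58 in Sox4 cells, against 9.59 in wild type cells, and it cannot show the mutations. Of the sort markers, Kit averaged 9.22 in K/L cells, 9.18 in Sox4 cells and 9.17 in wild type cells, while Itgam, which encodes Mac1, did not pass the filter on low values and averaged 3.83, 4.20 and 4.91 in the same order. Wild type array 3 stood apart: its correlation with each of the other wild type arrays was 0.986 over all probe sets, against at least 0.991 in every other pair of replicates. It lay more than 0.5 log2 from the mean of the other wild type arrays for 8 of the 43 genes (18.6%), and for 18.5% of all tested genes. Cdt1, Pold1, Pold2 and Pole were lower there, and Cdc45, Orc1, Pola1 and Rpa2 were higher. Over the 43 genes the median SD within a group was 0.08 in K/L cells, 0.06 in Sox4 cells and 0.18 in wild type cells, and the wild type group was the most variable of the 3 for 36 genes.

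Sequence around the start sites was examined, which the choice of the list did not use. Windows from 250 bases before to 50 bases after an annotated start, from RefSeq on mouse build GRCm38.p6, were at hand for 36 of the 43 genes. They were searched on both strands for the E2F words TTTCGCGC, TTTGGCGC, TTTCCCGC and TTTGGCGG, where TTTCGCGC and TTTGGCGC can overlap on opposite strands, as they do for Mcm5 and Mcm6. At least 1 of these 4 words stood in a window of 14 of the 36 genes (38.9%), against 2.70% of 27025 genes with a window. The CCAAT word was present for 61.1% of the 36 genes and 41.1% of all, and the GGGCGG word for 72.2% of the 36 genes and 38.2% of all. A match describes letters in a window and is neither a binding site nor a cause.

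Windows of 6 genes are printed 5′ to 3′ in the direction of transcription with E2F words in capitals, since they set genes that differed from wild type beside genes that passed no test. Mcm5, Cdt1 and Rpa1 were higher in both leukaemias, Mcm6 and Mcm7 passed in no comparison, and Tk1 had the largest difference of the list with none of the 4 words. Their positions are chr8:75109259-75109558 on the plus strand for Mcm5, chr8:122567765-122568064 on the plus strand for Cdt1, chr11:75348334-75348633 on the minus strand for Rpa1, chr1:128359656-128359955 on the minus strand for Mcm6, chr5:138171834-138172133 on the minus strand for Mcm7, and chr11:117825965-117826264 on the minus strand for Tk1. Counting the annotated start as base 1, with no base 0, the overlapping words of Mcm5 run from -153 to -142 and those of Mcm6 from -110 to -99, with another in Mcm6 from -47 to -40.
Mcm5: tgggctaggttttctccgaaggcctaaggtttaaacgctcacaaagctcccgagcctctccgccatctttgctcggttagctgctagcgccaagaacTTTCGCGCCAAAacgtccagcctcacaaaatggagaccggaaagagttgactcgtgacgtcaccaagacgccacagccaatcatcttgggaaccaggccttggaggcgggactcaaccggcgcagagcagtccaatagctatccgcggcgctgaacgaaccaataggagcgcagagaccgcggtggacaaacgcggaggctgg
Cdt1: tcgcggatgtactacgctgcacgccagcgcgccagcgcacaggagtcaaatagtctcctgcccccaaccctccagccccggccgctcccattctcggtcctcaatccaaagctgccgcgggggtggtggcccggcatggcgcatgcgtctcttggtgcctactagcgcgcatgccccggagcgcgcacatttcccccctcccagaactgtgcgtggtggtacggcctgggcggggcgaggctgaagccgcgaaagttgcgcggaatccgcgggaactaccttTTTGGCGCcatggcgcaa
Rpa1: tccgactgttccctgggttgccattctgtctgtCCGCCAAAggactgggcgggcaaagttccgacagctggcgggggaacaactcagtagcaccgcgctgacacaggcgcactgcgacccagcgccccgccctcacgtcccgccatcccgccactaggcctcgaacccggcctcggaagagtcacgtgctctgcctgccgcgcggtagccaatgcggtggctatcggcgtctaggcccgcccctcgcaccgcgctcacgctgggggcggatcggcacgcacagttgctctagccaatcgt
Mcm6: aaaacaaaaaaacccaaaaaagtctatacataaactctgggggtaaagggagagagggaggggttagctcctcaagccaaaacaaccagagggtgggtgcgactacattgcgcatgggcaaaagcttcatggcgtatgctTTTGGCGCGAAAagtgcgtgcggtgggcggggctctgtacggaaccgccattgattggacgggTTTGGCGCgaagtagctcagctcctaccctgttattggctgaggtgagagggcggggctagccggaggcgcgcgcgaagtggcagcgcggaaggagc
Mcm7: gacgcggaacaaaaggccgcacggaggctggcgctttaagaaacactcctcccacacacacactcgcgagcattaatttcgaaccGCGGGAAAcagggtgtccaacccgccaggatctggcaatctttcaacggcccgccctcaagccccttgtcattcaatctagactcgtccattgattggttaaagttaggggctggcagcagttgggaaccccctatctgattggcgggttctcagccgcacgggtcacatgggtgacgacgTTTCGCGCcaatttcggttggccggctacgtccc
Tk1: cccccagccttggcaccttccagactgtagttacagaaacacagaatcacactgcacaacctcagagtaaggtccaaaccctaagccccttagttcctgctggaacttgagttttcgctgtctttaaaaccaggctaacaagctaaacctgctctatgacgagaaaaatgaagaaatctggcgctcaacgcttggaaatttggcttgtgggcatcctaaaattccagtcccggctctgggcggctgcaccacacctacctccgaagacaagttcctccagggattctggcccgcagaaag

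K/L cells had higher signal than wild type cells for Pold2 of polymerase delta (2.45-fold), the loading factor Cdt1 (2.12-fold), the single-strand binding subunit Rpa1 (1.85-fold) and the thymidine salvage kinase Tk1 (1.73-fold). The primase subunit Prim2 was 1.38-fold lower. In K/L cells, 16 of the 43 genes were higher and 3 were lower than in wild type cells at an adjusted p under 0.05 (limma, Benjamini-Hochberg adjustment over all tested genes), and 24 did not pass. Over all tested genes 28.7% were higher and 21.6% lower, so the share of the list that was higher (37.2%) stood not far above the background, and the share that was lower (6.98%) stood below it. All 3 K/L arrays lay above all 3 wild type arrays for 17 of the 43 genes, against 32.8% of all tested genes. The median difference of the list was 0.15 log2, beside 0.05 over all tested genes, and single differences ran from -0.68 to 1.29. Without wild type array 3, 21 genes were higher and 2 lower, beside 3731 and 2808 of all 12728 genes tested in that fit (3689 and 2785 of 12866 with all arrays).

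Sox4 cells had higher signal than wild type cells for Tk1 (3.24-fold), Pold2 (2.69-fold), Cdt1 (1.96-fold), the polymerase epsilon gene Pole (1.86-fold) and the origin recognition gene Orc1 (1.78-fold). In Sox4 cells, 22 of the 43 genes were higher than in wild type cells and 0 were lower by the same limma test, and 21 did not pass. The background was 26.6% higher and 21.1% lower, against 51.2% and 0% of the list. All 3 Sox4 arrays lay above all 3 wild type arrays for 24 of the 43 genes, against 31.0% of all tested genes. The median difference was 0.31 log2, beside 0.03 over all tested genes, with a range from -0.29 to 1.70. Without wild type array 3, 26 genes were higher and 0 lower, beside 3501 and 2734 of all 12728 genes tested in that fit (3420 and 2712 of 12866 with all arrays).

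Both leukaemias were compared with the same wild type arrays, so their differences are not independent of each other. Both passed as higher for 15 genes: Orc1, Orc6, Cdc6, Cdt1, Mcm2, Mcm5, Gins2, Pola2, Pold1, Pold2, Pole, Rfc5, Rpa1, Lig1 and Tk1. Mcm3 passed in K/L cells alone, Mcm4, Mcm10, Timeless, Pola1, Fen1, Rnaseh2a and Dut passed in Sox4 cells alone, and Prim2, Rfc3 and Tyms passed as lower in K/L cells. The remaining 17 genes passed in neither comparison with wild type. Passing in one leukaemia alone does not show a difference between the leukaemias, which is tested further on.

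The list is made of strongly expressed genes, and 40 of its 43 members averaged at least 8 on the log2 scale. Among the 5751 tested genes at or above that level, a cut chosen after the values were seen, 31.5% were higher and 24.3% lower in K/L cells than in wild type cells, against 37.5% and 5.00% of the 40 members. In Sox4 cells 28.9% of these brighter genes were higher and 23.4% lower than in wild type cells, against 52.5% and 0% of the 40 members.

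**Figure D1:**
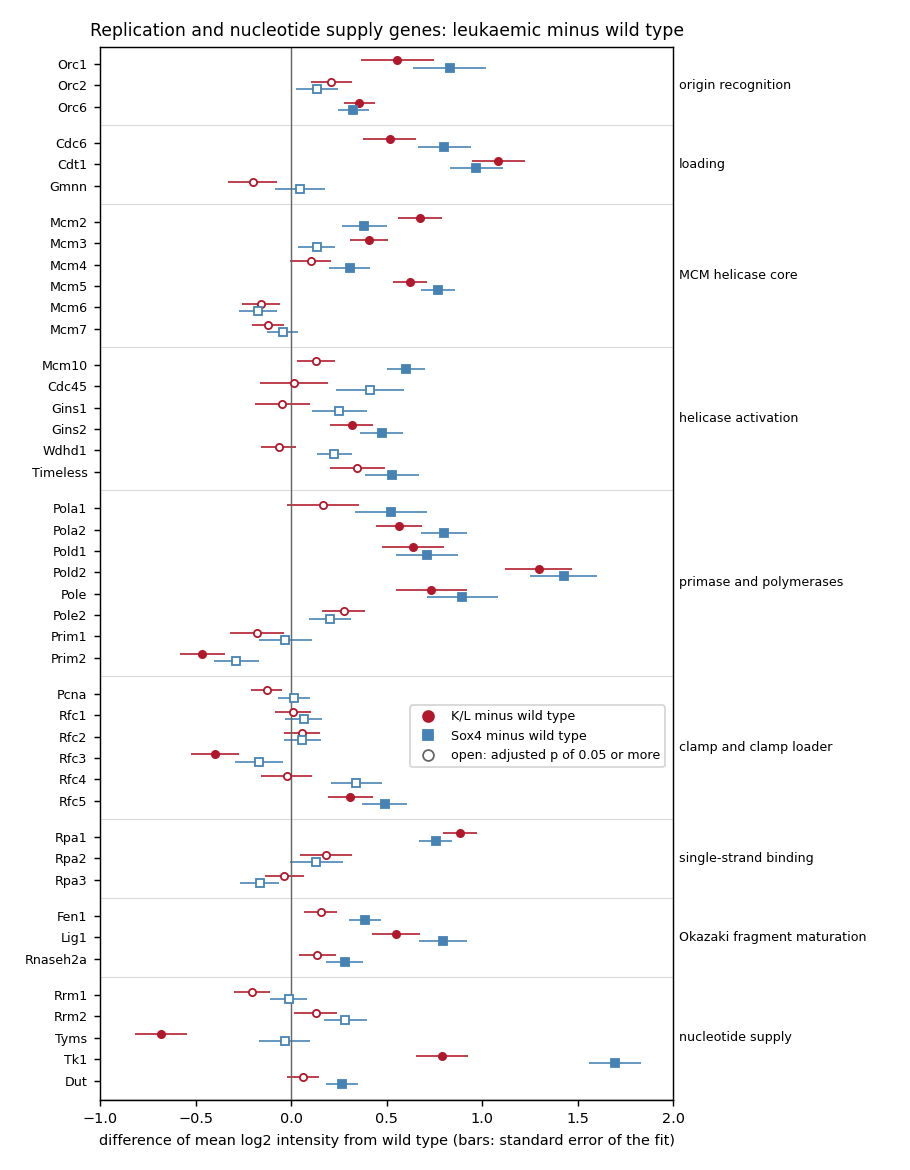
Difference of mean log2 intensity from wild type for each of the 43 genes, grouped by role, with circles for K/L cells, squares for Sox4 cells, bars for the standard error of the fit and open symbols for an adjusted p of 0.05 or more. Tk1 in Sox4 cells (1.70) and Pold2 in both leukaemias (1.29 and 1.43) lie farthest right, Tyms in K/L cells (-0.68, from 1 of its probe sets) lies farthest left, and Mcm6, Mcm7, Pcna, Rfc1 and Rfc2 lie between -0.17 and 0.06.

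Among the origin recognition genes, Orc1 and Orc6 passed as higher in both leukaemias and Orc2 passed in neither. Orc1, the ATPase subunit of the complex, measured 7.30, 7.18 and 7.45 in the K/L arrays and 7.42, 7.69 and 7.63 in the Sox4 arrays, against 6.40, 6.64 and 7.22 in the wild type arrays. Wild type array 3 reached into the range of the K/L arrays, and only the Sox4 arrays were clear of all wild type arrays. The difference was 0.56 ± 0.19 (SE) in K/L cells (adjusted p = 0.0328) and 0.83 ± 0.19 in Sox4 cells (adjusted p = 0.00509). The K/L call for Orc1 was lost in 6 of 18 alternative analyses, among them those without K/L array 1 or 3 or wild type array 1 or 2, with adjusted p up to 0.114. Orc6, a small subunit needed for MCM loading, was 0.36 ± 0.08 higher in K/L cells (adjusted p = 0.00522) and 0.33 ± 0.08 higher in Sox4 cells (adjusted p = 0.00884), with no overlap with wild type in either. Orc2 averaged 10.06 in K/L cells and 9.99 in Sox4 cells, against 9.85 in wild type cells.

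The loading factors Cdc6 and Cdt1 were higher in both leukaemias, while Gmnn, which encodes the Cdt1 inhibitor geminin, did not pass in either. Cdt1, which brings the MCM complex to the origin, measured 11.36, 11.26 and 11.26 in the K/L arrays and 11.24, 11.13 and 11.18 in the Sox4 arrays, against 10.38, 10.38 and 9.87 in the wild type arrays. The leukaemic groups were each tight and well above every wild type array. The difference was 1.08 ± 0.14 in K/L cells (2.12-fold, adjusted p = 0.00014) and 0.97 ± 0.14 in Sox4 cells (1.96-fold, adjusted p = 0.000298). Cdc6, the ATPase that works with Cdt1, measured 9.21, 9.52 and 9.14 in the K/L arrays and 9.59, 9.63 and 9.50 in the Sox4 arrays, against 8.66, 8.63 and 9.03 in the wild type arrays. Neither leukaemia overlapped with wild type, and K/L array 3 was the nearest to it. Cdc6 was 0.52 ± 0.14 higher in K/L cells (adjusted p = 0.0111) and 0.80 ± 0.14 higher in Sox4 cells (adjusted p = 0.001). Gmnn averaged 10.73 in K/L cells and 10.98 in Sox4 cells, against 10.93 in wild type cells, with wild type array 3 above the other wild type arrays.

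Of the MCM core subunits, Mcm2, Mcm3 and Mcm5 rose in K/L cells, Mcm2, Mcm4 and Mcm5 rose in Sox4 cells, and Mcm6 and Mcm7 passed in no comparison. Mcm2 measured 10.69, 10.57 and 10.74 in the K/L arrays and 10.40, 10.39 and 10.33 in the Sox4 arrays, against 10.22, 9.95 and 9.80 in the wild type arrays. The groups stood in 3 separate steps with K/L cells highest. The difference from wild type was 0.67 ± 0.12 in K/L cells (adjusted p = 0.000969) and 0.38 ± 0.12 in Sox4 cells (adjusted p = 0.0214). Without Sox4 array 1 or 2, or without wild type array 2, the Sox4 call for Mcm2 was lost, with adjusted p up to 0.0634. Mcm5 measured 11.54, 11.57 and 11.54 in the K/L arrays and 11.76, 11.63 and 11.69 in the Sox4 arrays, against 10.81, 10.98 and 10.99 in the wild type arrays. Both leukaemias were clear of wild type, by 0.62 ± 0.09 in K/L cells (adjusted p = 0.000313) and 0.77 ± 0.09 in Sox4 cells (adjusted p = 8.39e-05).

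Mcm3 was 0.41 ± 0.10 higher in K/L cells (adjusted p = 0.00678) and its difference in Sox4 cells was 0.13 ± 0.10 (adjusted p = 0.3). The K/L call for Mcm3 depended on the probe set: with the mean of all its probe sets the difference was 0.08 (adjusted p = 0.503). Mcm4 was 0.31 ± 0.11 higher in Sox4 cells (adjusted p = 0.0388), a call that was lost without Sox4 array 1 or 3, K/L array 3, or wild type array 2 or 3 (adjusted p up to 0.135), and 0.10 ± 0.11 above wild type in K/L cells (adjusted p = 0.458). Mcm6 measured 12.15, 12.17 and 12.10 in the K/L arrays and 12.10, 11.99 and 12.28 in the Sox4 arrays, against 12.37, 12.32 and 12.21 in the wild type arrays. Mcm7 measured 12.52, 12.51 and 12.49 in the K/L arrays and 12.58, 12.63 and 12.54 in the Sox4 arrays, against 12.64, 12.57 and 12.67 in the wild type arrays. For both genes the leukaemic means lay slightly below the wild type mean, and the 95% interval of the K/L difference ran from -0.38 to 0.07 for Mcm6 and from -0.31 to 0.06 for Mcm7. The windows printed for Mcm5, Mcm6 and Mcm7 all held E2F words, while another annotated window of Mcm7 and the window of Mcm2 held none.

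Of the helicase activation genes, 1 of 6 rose in K/L cells and 3 of 6 in Sox4 cells. Mcm10, which helps to start the loaded helicase, measured 8.94, 8.91 and 8.74 in the K/L arrays and 9.29, 9.27 and 9.45 in the Sox4 arrays, against 8.71, 8.83 and 8.66 in the wild type arrays. The K/L and wild type arrays overlapped and the Sox4 arrays stood above both. Against wild type, K/L cells differed by 0.13 ± 0.10 (adjusted p = 0.316) and Sox4 cells were 0.60 ± 0.10 higher (adjusted p = 0.000817). Gins2, a subunit of the GINS complex, was 0.32 ± 0.11 higher in K/L cells (adjusted p = 0.0388, lost in 9 of 18 alternatives, without any 1 leukaemic array or wild type array 1 among them, with p up to 0.118) and 0.47 ± 0.11 higher in Sox4 cells (adjusted p = 0.00615). Timeless, of the fork protection complex, was 0.53 ± 0.14 higher in Sox4 cells (adjusted p = 0.0126) and 0.35 ± 0.14 above wild type in K/L cells (adjusted p = 0.07). Cdc45 measured 7.55 and 7.53 in wild type arrays 1 and 2 but 8.28 in wild type array 3, a spread that covered every K/L and Sox4 array. Gins1, another GINS subunit, was at 10.39 in K/L cells and 10.68 in Sox4 cells, against 10.43 in wild type cells, and passed in neither.

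Of the primase and polymerase genes, 4 of 8 passed as higher and 1 as lower in K/L cells, and 5 of 8 as higher and 0 as lower in Sox4 cells. Pold2, the accessory subunit of polymerase delta, measured 8.78, 8.73 and 8.90 in the K/L arrays and 8.97, 8.73 and 9.10 in the Sox4 arrays, against 7.68, 7.76 and 7.08 in the wild type arrays. Every leukaemic array was far above every wild type array, and wild type array 3 was the lowest. The difference was 1.29 ± 0.18 in K/L cells (2.45-fold, adjusted p = 0.000212) and 1.43 ± 0.18 in Sox4 cells (2.69-fold, adjusted p = 0.000119), and without wild type array 3 it was 1.08 and 1.21. Pold1, the catalytic subunit of the same polymerase, measured 9.61, 9.82 and 9.81 in the K/L arrays and 9.78, 9.80 and 9.90 in the Sox4 arrays, against 9.20, 9.42 and 8.72 in the wild type arrays. The leukaemias overlapped with each other and not with wild type. Pold1 was 0.64 ± 0.16 higher in K/L cells (adjusted p = 0.00874) and 0.71 ± 0.16 higher in Sox4 cells (adjusted p = 0.00505).

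Pole, the catalytic subunit of polymerase epsilon, measured 8.84, 8.70 and 8.87 in the K/L arrays and 8.97, 8.91 and 9.01 in the Sox4 arrays, against 8.28, 8.36 and 7.56 in the wild type arrays. All leukaemic arrays were above all wild type arrays, with wild type array 3 far below the other wild type arrays. The difference was 0.73 ± 0.18 in K/L cells (adjusted p = 0.0082) and 0.90 ± 0.18 in Sox4 cells (adjusted p = 0.00292), and without wild type array 3 it was 0.48 and 0.64, both still past the threshold. Pola2, the accessory subunit of polymerase alpha, measured 8.09, 8.33 and 8.36 in the K/L arrays and 8.36, 8.47 and 8.65 in the Sox4 arrays, against 7.54, 7.77 and 7.77 in the wild type arrays. The groups did not overlap with wild type, and Pola2 was 0.56 ± 0.12 higher in K/L cells (adjusted p = 0.00336) and 0.80 ± 0.12 higher in Sox4 cells (adjusted p = 0.000427). A second probe set of Pola2 went the other way in both, and with the mean of all its probe sets the K/L difference was 0.17 (adjusted p = 0.138).

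Pola1, the catalytic subunit of polymerase alpha, was 0.52 ± 0.19 higher in Sox4 cells (adjusted p = 0.0432), but its wild type arrays ran from 8.69 to 9.59 and the call was kept in 7 of 18 alternatives, being lost without any 1 array other than wild type array 3 (adjusted p up to 0.317). Prim2, the large primase subunit, measured 8.76, 8.95 and 8.73 in the K/L arrays and 9.13, 8.93 and 8.92 in the Sox4 arrays, against 9.22, 9.15 and 9.47 in the wild type arrays. Both leukaemias were below all wild type arrays, by -0.47 ± 0.12 in K/L cells (adjusted p = 0.00865) and -0.29 ± 0.12 in Sox4 cells (adjusted p = 0.0723), the second not past the threshold. Prim1, the catalytic primase subunit, averaged 10.09 in K/L cells and 10.24 in Sox4 cells, against 10.27 in wild type cells, and Pole2, an accessory subunit of polymerase epsilon, averaged 9.11, 9.04 and 8.84 in the same order. Neither passed in either comparison.

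**Figure D2:**
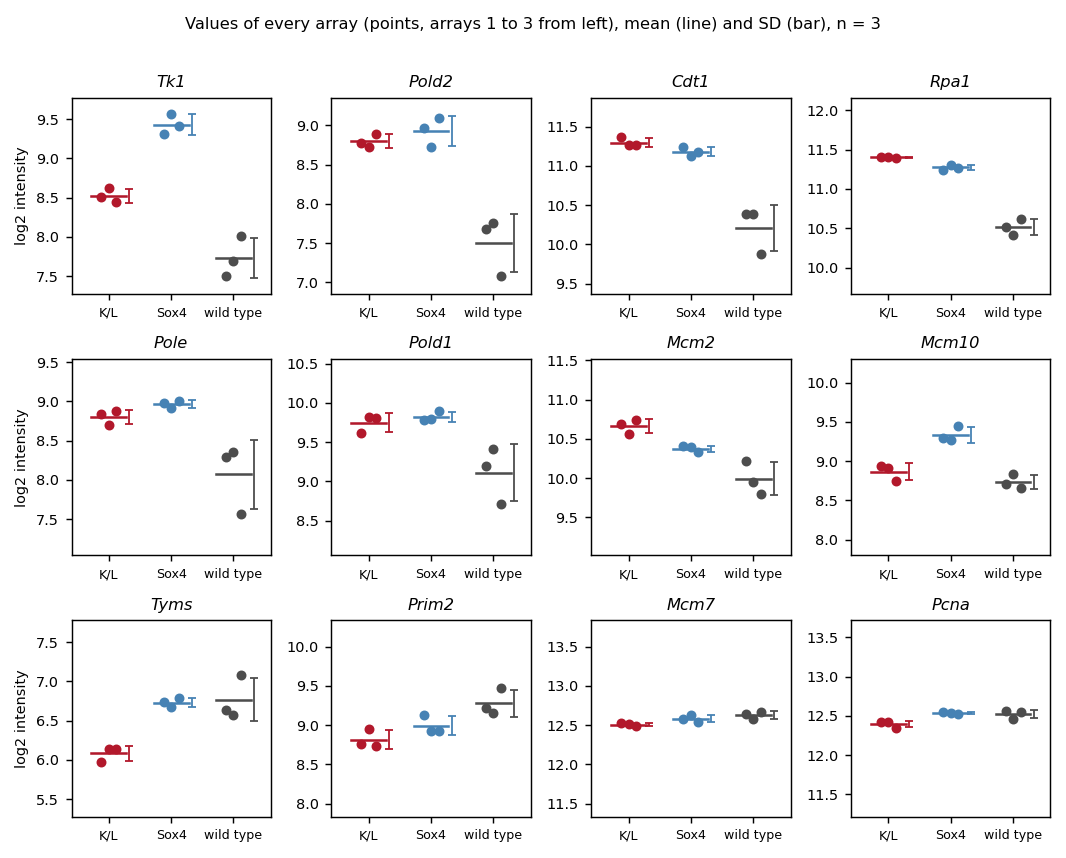
Log2 intensity of 12 of the genes on every array (points, replicates 1 to 3 from left) with the mean (line) and SD (bar) of each group of 3. All panels span the same number of log2 units, each around its own centre. Tk1 stands in 3 separate steps, the Pold2, Cdt1, Pole and Pold1 panels show wild type array 3 as the lowest point, and the Mcm7 and Pcna points lie close together in all groups.

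Of the genes of the clamp and its loader, 1 of 6 passed as higher and 1 as lower in K/L cells, and 1 as higher in Sox4 cells. Pcna, the sliding clamp that holds the polymerase on DNA, measured 12.42, 12.42 and 12.35 in the K/L arrays and 12.55, 12.54 and 12.53 in the Sox4 arrays, against 12.56, 12.46 and 12.55 in the wild type arrays. The Sox4 and wild type arrays overlapped, and the K/L arrays lay just below. The 95% interval of the difference from wild type ran from -0.31 to 0.05 in K/L cells and from -0.17 to 0.20 in Sox4 cells. Of the loader subunits, Rfc5 was 0.31 ± 0.12 higher in K/L cells (adjusted p = 0.0485, lost in 11 of 18 alternatives, without any 1 array other than wild type array 3 among them, with p up to 0.153) and 0.49 ± 0.12 higher in Sox4 cells (adjusted p = 0.00634). Rfc3 was lower in K/L cells by -0.40 ± 0.13 (adjusted p = 0.0231), a call lost without wild type array 3, without K/L array 1, with each array centred on its median and with the mean of all its probe sets (adjusted p up to 0.113). Rfc1, Rfc2 and Rfc4 passed in neither comparison.

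Of the subunits of the single-strand binding protein, Rpa1 rose in both leukaemias and Rpa2 and Rpa3 passed in neither. Rpa1, its large subunit, measured 11.40, 11.41 and 11.39 in the K/L arrays and 11.25, 11.30 and 11.27 in the Sox4 arrays, against 10.52, 10.42 and 10.62 in the wild type arrays. The groups had SDs of 0.01, 0.03 and 0.10 in that order and lay in 3 separate steps. The difference was 0.88 ± 0.09 in K/L cells (1.85-fold, adjusted p = 2.79e-05) and 0.76 ± 0.09 in Sox4 cells (1.69-fold, adjusted p = 7.99e-05). Rpa2 averaged 10.60 in K/L cells and 10.54 in Sox4 cells, against 10.41 in wild type cells, and Rpa3 averaged 10.37, 10.24 and 10.41 in the same order.

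All 3 genes of Okazaki fragment maturation were higher in Sox4 cells and 1 of them, Lig1, was higher in K/L cells. Lig1, the ligase that seals the fragments, measured 10.50, 10.56 and 10.50 in the K/L arrays and 10.67, 10.84 and 10.80 in the Sox4 arrays, against 9.75, 10.23 and 9.94 in the wild type arrays. The groups did not overlap, with the Sox4 arrays highest. Lig1 was 0.55 ± 0.12 higher in K/L cells (adjusted p = 0.00473) and 0.79 ± 0.12 higher in Sox4 cells (adjusted p = 0.000564). Fen1, the flap nuclease that trims the fragments, was 0.39 ± 0.08 higher in Sox4 cells (adjusted p = 0.00381), and its difference in K/L cells was 0.15 ± 0.08 (adjusted p = 0.158). Rnaseh2a, a subunit of the nuclease that removes RNA from DNA, was 0.28 ± 0.10 higher in Sox4 cells (adjusted p = 0.0401, lost in 10 of 18 alternatives, without any 1 array other than wild type array 3 among them, with p up to 0.121).

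The nucleotide supply genes included the largest rise of the list in Sox4 cells, that of Tk1, and the largest fall in K/L cells, that of Tyms. Tk1, the thymidine salvage kinase, measured 8.51, 8.62 and 8.44 in the K/L arrays and 9.31, 9.57 and 9.42 in the Sox4 arrays, against 7.50, 7.70 and 8.01 in the wild type arrays. The 3 groups were fully separate, with Sox4 cells highest. The difference was 0.79 ± 0.14 in K/L cells (1.73-fold, adjusted p = 0.000981) and 1.70 ± 0.14 in Sox4 cells (3.24-fold, adjusted p = 7.77e-06). Tyms, the enzyme that makes thymidylate from deoxyuridylate, measured 5.97, 6.14 and 6.14 in the K/L arrays and 6.74, 6.67 and 6.78 in the Sox4 arrays, against 6.64, 6.58 and 7.08 in the wild type arrays. The K/L arrays lay below all others, while Sox4 and wild type overlapped. Tyms was lower in K/L cells by -0.68 ± 0.14 (1.60-fold, adjusted p = 0.00218), and its difference in Sox4 cells was -0.03 ± 0.14 (adjusted p = 0.854).

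The Tyms result depended on the probe set used, because the probe sets of the gene disagreed. With the mean of all its probe sets, the K/L difference from wild type was 0.056 (adjusted p = 0.742), so no direction can be given for Tyms against wild type beyond this 1 probe set. Dut, which clears dUTP, was 0.27 ± 0.08 higher in Sox4 cells (adjusted p = 0.025, lost without any 1 Sox4 array or wild type array 2, with p up to 0.0849) and 0.06 ± 0.08 above wild type in K/L cells (adjusted p = 0.572). Rrm1, the large subunit of ribonucleotide reductase, averaged 11.26 in K/L cells and 11.45 in Sox4 cells, against 11.47 in wild type cells. Rrm2, its small subunit, averaged 11.46, 11.62 and 11.33 in the same order. Neither subunit passed in any comparison.

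Among the called genes that have another probe set above the filter, 14 of 18 other probe sets had the same sign for K/L against wild type and 14 of 15 for Sox4 against wild type. The exceptions belonged to Mcm3, Pola2 and Tyms in K/L cells and to Pola2 in Sox4 cells. An E2F word stood in the window of 8 of the 13 genes that were higher in both leukaemias and had a window (61.5%). It stood in that of 3 of the 14 that passed in neither comparison with wild type (21.4%), namely Mcm6, Mcm7 and Pole2. For the same 2 sets the CCAAT word was present for 46.2% and 78.6%, and the GGGCGG word for 76.9% and 71.4%. The other genes with an E2F word were Mcm3, higher in K/L cells alone, Pola1, higher in Sox4 cells alone, and Rfc3, lower in K/L cells. Tk1 and Pold2, with the largest differences in Sox4 cells, had none of the 4 words in these windows.

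The leukaemias were also set against each other. Tk1, Tyms, Mcm10 and Wdhd1 were lower in K/L cells than in Sox4 cells, by 1.22-fold to 1.88-fold, and no gene of the list was higher. In K/L cells 0 of the 43 genes were higher and 4 were lower than in Sox4 cells (limma, adjusted p under 0.05), against 14.7% higher and 14.1% lower over all tested genes, and 39 did not pass. Of the 43, 9 had an unadjusted p under 0.05, as did 5017 of the 12866 tested genes. All 3 K/L arrays nonetheless lay below all 3 Sox4 arrays for 23 genes (24.0% of all tested genes did so), and 33 of the 43 differences were negative. The median difference was -0.16 log2, beside 0.03 over all tested genes. The Sox4 mean was the highest and the wild type mean the lowest of the 3 groups for 22 genes, and K/L cells were highest and wild type lowest for 8. The count of lower genes was 9 without wild type array 3, which enters this comparison through the shared estimate of spread. It was 10 when only the 6 leukaemic arrays were fitted. Over all tested genes the lower count also rose, from 1813 to 2245 (of 12728) and 2275 (of 12866) in the same order. Mcm2 and Mcm3 passed as higher in both of these fits.

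Tk1, with the per-array values given above, differed by -0.91 ± 0.14 (1.88-fold, adjusted p = 0.000793). Tyms differed by -0.65 ± 0.14 (1.57-fold, adjusted p = 0.00559), and with the mean of all its probe sets by -0.25 (adjusted p = 0.185). Mcm10 differed by -0.47 ± 0.10 (1.39-fold, adjusted p = 0.00609). Wdhd1, which ties the helicase to polymerase alpha, measured 8.97, 8.87 and 8.80 in the K/L arrays and 9.18, 9.24 and 9.09 in the Sox4 arrays, with 8.99, 8.85 and 8.99 in the wild type arrays. The K/L and wild type arrays overlapped, and the Sox4 arrays lay just above both. The Wdhd1 difference of -0.29 ± 0.09 (adjusted p = 0.0414) was lost in 9 of 18 alternatives, among them both other scalings of the arrays and the fits without any 1 leukaemic array (adjusted p up to 0.141).

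Mcm2 and Mcm3 had the largest positive differences, 0.29 (95% interval 0.03 to 0.55, adjusted p = 0.0934) and 0.27 (0.05 to 0.50, adjusted p = 0.0647), and passed only under some alternatives. The sign for Mcm3 depended on the probe set, and the difference was -0.090 with the mean of all its probe sets. For Pold2, Cdt1 and Rpa1, the 3 genes with the largest differences of K/L cells from wild type cells, no difference between the leukaemias passed the test. The interval of K/L minus Sox4 ran from -0.52 to 0.26 for Pold2, from -0.19 to 0.42 for Cdt1 and from -0.07 to 0.32 for Rpa1. These intervals leave room for differences between the leukaemias within those bounds. Tk1, with the next largest difference of K/L cells from wild type cells, differed between the leukaemias as given above.

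**Figure D3:**
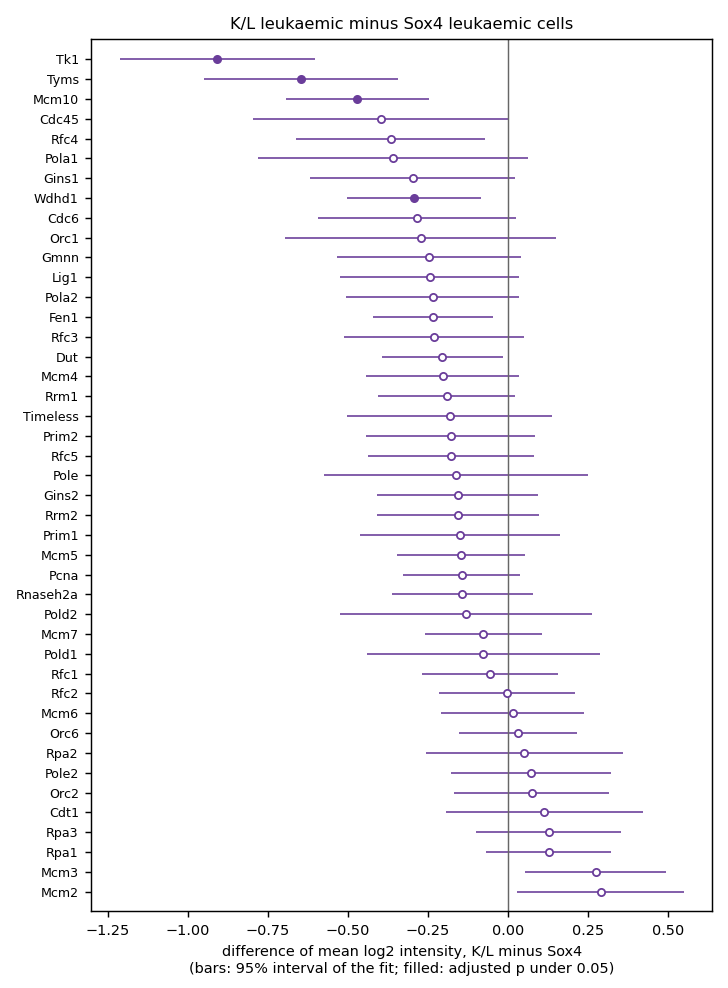
K/L minus Sox4 difference of mean log2 intensity for the 43 genes, ordered by size, with 95% intervals of the fit and filled points for an adjusted p under 0.05. The points for 33 genes lie left of 0, and those for Tk1, Tyms, Mcm10 and Wdhd1 are filled.

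Genes of the same pathways outside the list were taken from lists chosen alongside it. Of 36 replication helpers, 33 were tested: 8 were higher and 10 lower in K/L cells than in wild type cells (24.2% and 30.3%, median -0.03), and 9 were higher and 3 lower in Sox4 cells (shares of 27.3% and 9.09%, median 0.06). The shares that were higher lay near the background of all genes in both. Recql4, a helicase that acts when replication starts, was 1.05 ± 0.12 higher in K/L cells (adjusted p = 8.4e-05) and 1.77 ± 0.12 higher in Sox4 cells (adjusted p = 3.13e-06). Pold4, a small subunit of polymerase delta, was 1.26 ± 0.12 and 1.00 ± 0.12 higher in K/L and Sox4 cells, and the histone chaperone gene Asf1b was 0.84 ± 0.12 and 1.21 ± 0.12 higher. Mcm9, an MCM relative of DNA repair, was lower in both, by -1.12 ± 0.10 in K/L cells (adjusted p = 1.48e-05) and -0.95 ± 0.10 in Sox4 cells (adjusted p = 4.63e-05). Recql4 and Asf1b were also lower in K/L than in Sox4 cells, by -0.72 and -0.37.

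Of 33 genes of nucleotide synthesis, 31 were tested: 14 were higher and 5 lower in K/L cells than in wild type cells (45.2% and 16.1%, median 0.29), and 15 were higher and 5 lower in Sox4 cells (shares of 48.4% and 16.1%, median 0.25). Over all tested genes the shares were 28.7% and 21.6% in K/L cells, and 26.6% and 21.1% in Sox4 cells. Many of the 33 genes, though not all, act in making the precursors that the deoxynucleotide genes of the list use. Mthfd2, of mitochondrial one-carbon metabolism, was 1.33 ± 0.13 higher in K/L cells and 0.82 ± 0.13 higher in Sox4 cells, and the cytosolic enzyme gene Mthfd1 was 1.07 ± 0.10 and 0.81 ± 0.10 higher. Impdh1, of guanine nucleotide synthesis, was 1.55 ± 0.19 and 0.96 ± 0.19 higher, and Cad, which starts pyrimidine synthesis, was 1.18 ± 0.21 and 1.60 ± 0.21 higher. Their adjusted p-values ran from 2.55e-05 for Mthfd2 in K/L cells to 0.00269 for Impdh1 in Sox4 cells. Mthfd2 and Impdh1 were higher in K/L than in Sox4 cells, by 0.51 (adjusted p = 0.0152) and 0.59 (adjusted p = 0.0471).

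Of 30 regulators of S phase entry, all tested, 15 were higher and 6 lower in K/L cells than in wild type cells (median 0.41), and 16 were higher and 4 lower in Sox4 cells (median 0.47). Activators and inhibitors of the cycle were both among them. Cdkn1b, the CDK inhibitor p27, measured 9.17, 9.44 and 9.25 in the K/L arrays and 8.99, 8.87 and 8.74 in the Sox4 arrays, against 5.45, 5.43 and 4.27 in the wild type arrays. Cdkn2c, the CDK inhibitor p18, measured 7.71 to 8.10 in the K/L arrays and 8.83 to 9.04 in the Sox4 arrays, against 4.53 to 4.99 in the wild type arrays. Both lay above wild type on every leukaemic array. The Cdkn2c values of the wild type arrays and the Cdkn1b value of wild type array 3 lay near or below the level used as the filter, the 40th percentile of the array (4.93 to 4.95 in the wild type arrays), so no size of these differences is given. Mybl2, an activator of S phase and mitotic genes, was 1.95 ± 0.12 and 2.50 ± 0.12 higher in K/L and Sox4 cells. Ccnd3, which encodes cyclin D3, was 0.46 ± 0.14 higher in K/L cells (adjusted p = 0.0172) and 1.77 ± 0.14 higher in Sox4 cells (adjusted p = 5.63e-06).

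Mitosis genes were counted beside the replication genes. Of 24 tested, 6 were higher and 5 lower in K/L cells than in wild type cells, 12 were higher and 0 lower in Sox4 cells than in wild type cells, and 0 were higher and 17 lower in K/L cells than in Sox4 cells. The medians over these 24 genes were -0.02, 0.31 and -0.42 in the same order of comparisons. Over all tested genes, 28.7% were higher and 21.6% lower in K/L cells than in wild type cells. This background was 26.6% and 21.1% for Sox4 against wild type cells, and 14.7% and 14.1% for K/L against Sox4 cells. Against wild type, the K/L counts (6 and 5 of 24) stood near the background. The 12 of 24 that were higher in Sox4 cells stood above it, as did the 70.8% that were lower in K/L than in Sox4 cells. Mki67, the proliferation antigen Ki-67, was 0.85 ± 0.16 higher in K/L cells (adjusted p = 0.00142) and 1.35 ± 0.16 higher in Sox4 cells (adjusted p = 7.98e-05). The Aurora kinase gene Aurkb was 0.65 ± 0.12 and 1.14 ± 0.12 higher in the same order, and the condensin gene Ncaph 0.41 ± 0.10 and 0.72 ± 0.10 higher. Nusap1, a spindle protein, was lower in K/L cells by -0.69 ± 0.09 (adjusted p = 0.000201) and differed by -0.07 ± 0.09 in Sox4 cells (adjusted p = 0.566).

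Other measures moved with the groups. The 3′ to 5′ ratio of the Gapdh control probe sets was 1.93 to 2.00 in the K/L arrays and 2.22 to 2.44 in the Sox4 arrays, against 2.68 to 2.91 in the wild type arrays, while that of actin was 0.866 to 0.976 over all arrays. Summed over 7 markers of mature neutrophils, all 7 above the filter, log2 levels were 32.8 to 37.0 in the K/L arrays and 54.3 to 56.2 in the Sox4 arrays, against 52.7 to 56.5 in the wild type arrays. Of these markers 4 were lower in K/L cells than in wild type cells, and 4 were higher and 3 lower in Sox4 cells. Summed over 5 megakaryocyte markers, of which 4 passed the filter and Ppbp did not, levels were 24.1 to 24.6 in the K/L arrays and 33.3 to 35.3 in the Sox4 arrays, against 23.8 to 26.1 in the wild type arrays. Of these, 4 were higher in Sox4 cells than in wild type cells and 1 was lower in K/L cells. Both leukaemias stood clear of wild type cells in the summed markers of some other lineages. Summed over 6 markers of monocytes and macrophages, all 6 above the filter, levels were 53.4 to 54.7 in the K/L arrays and 55.0 to 55.3 in the Sox4 arrays, against 49.3 to 49.7 in the wild type arrays. Of these markers 2 rose and 1 fell in K/L cells, and 4 rose and 1 fell in Sox4 cells. Summed over 4 markers of mast cells and basophils, of which 3 passed the filter, levels were 29.5 to 30.7 in the K/L arrays and 30.9 to 32.1 in the Sox4 arrays, against 25.7 to 27.4 in the wild type arrays. Of these markers 2 rose and 1 fell in K/L cells, and 1 rose in Sox4 cells. Summed over 3 B cell markers, all 3 above the filter, levels were 18.7 to 19.1 in the K/L arrays and 17.3 to 18.4 in the Sox4 arrays, against 16.6 to 17.0 in the wild type arrays. Of these markers 2 rose and 0 fell in K/L cells, and 1 rose and 1 fell in Sox4 cells. The sums for monocytes and macrophages, mast cells and basophils, and B cells did not overlap between either leukaemia and wild type cells. Nor did those for 5 erythroid markers, of which 3 passed the filter. They were 29.6 to 29.9 in the K/L arrays and 32.6 to 32.7 in the Sox4 arrays, against 30.4 to 31.8 in the wild type arrays. For 4 sort gate markers, of which 3 passed the filter, sums were 35.3 to 35.8, 34.9 to 35.5 and 37.1 to 37.3 in the same order. The sums for neutrophils overlapped between Sox4 and wild type cells, and those for megakaryocytes between K/L and wild type cells. The part of all these measures in the differences of the replication genes was not tested.

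**Figure D4:**
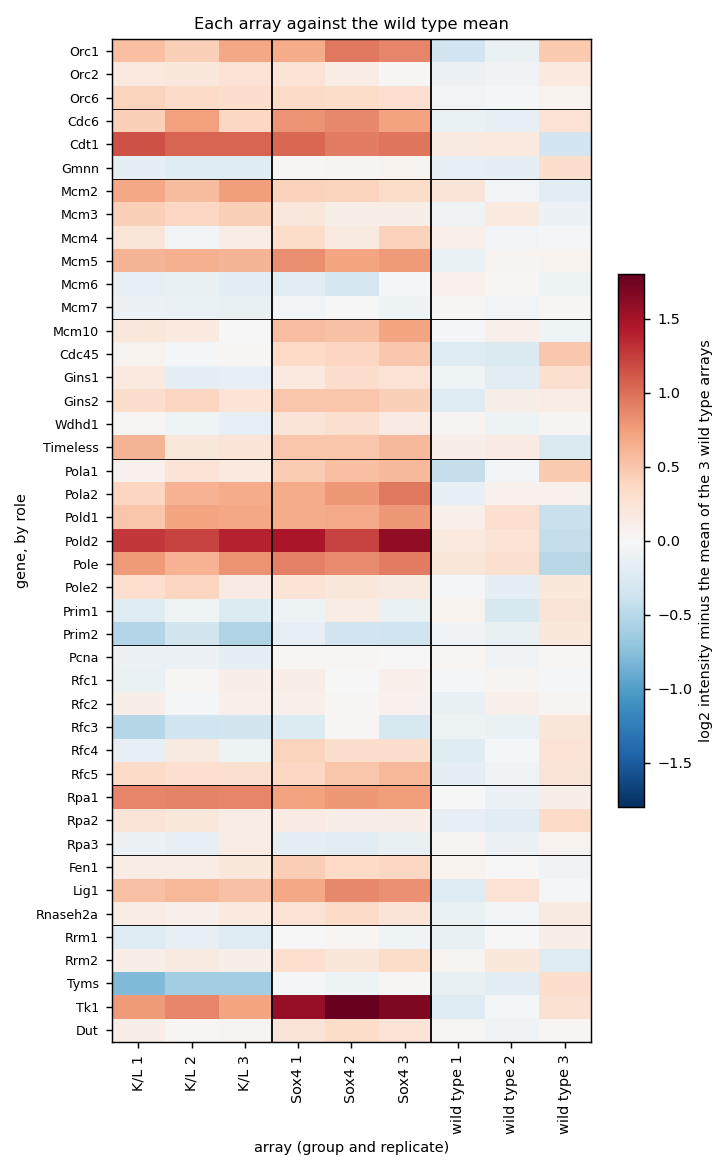
Log2 intensity of each of the 43 genes on each array minus the mean of the 3 wild type arrays, on a colour scale from blue (lower) to red (higher), with genes by role down the side and K/L, Sox4 and wild type arrays from left to right. The Pold2 and Cdt1 rows are dark red in both leukaemias, Tk1 is darkest in the Sox4 arrays, Tyms is bluest in the K/L arrays, and the wild type array 3 column departs from the other wild type columns in both directions.

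The members' mean over all 43 genes was 10.02 to 10.03 in the K/L arrays and 10.18 to 10.19 in the Sox4 arrays, against 9.75 to 9.87 in the wild type arrays. The array medians over all probe sets ran from 5.43 to 5.46 in the K/L arrays and from 5.52 to 5.54 in the Sox4 arrays, against 5.53 to 5.55 in the wild type arrays.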

How the data were processed

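The authors deposited 1 table of intensity values on a linear scale for 45101 probe sets on 9 arrays, with a floor of 8. Per the submitters' processing notes the values come from RMA, with the version and any later step not given in the sources used here. Precision is limited by having 3 arrays per group. Values were log2 transformed with the scaling as deposited, and array medians ran from 5.43 to 5.55. Gene symbols came from the platform's annotation of 2016: 34958 had 1 symbol, 932 several and 9211 none, and 34754 were matched by gene ID with 0 symbols changed. Each gene was read from its probe set of highest mean.

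All 9 arrays were fitted with limma 3.58.1 (R 4.3.3), with group as the only term, 6 residual and 3.64 prior degrees of freedom, and Benjamini-Hochberg adjustment over 12866 genes for each of 3 comparisons at 0.05. An exact permutation test of 3 against 3 arrays cannot go below p = 0.1, so none is given. The procedure was tested on simulated data. Alternatives were 2 scalings, 2 filters, 2 probe set rules, a fit of 6 arrays, an intensity trend, a replicate block and each array left out. The genes and lists were chosen with earlier results of these data known. Values of every array are given by rule for genes past the threshold without overlap, up to 8 per comparison by size, and up to 4 genes of each other list by smallest p, with further genes by role.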

Additional observations from a re-analysis of the deposited data

Results flagged for a closer look

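For 4 genes the change from wild type differed between the leukaemias by a test of the difference itself, K/L minus Sox4 (limma, adjusted over all 12866 tested genes). The difference was -0.91 log2 for Tk1 (adjusted p = 0.000793), -0.65 for Tyms (adjusted p = 0.00559), -0.47 for Mcm10 (adjusted p = 0.00609) and -0.29 for Wdhd1 (adjusted p = 0.0414). All 3 K/L arrays lay below all 3 Sox4 arrays for each of the 4. Tk1 was higher than wild type in both leukaemias, Mcm10 passed against wild type in Sox4 cells, Tyms passed in K/L cells, and Wdhd1 passed in neither. The Tyms difference was lost with the mean of all its probe sets, and that of Wdhd1 in 9 of 18 alternatives.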

How the results depend on the processing

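Each of the 129 gene results was recomputed under 18 alternatives, which left 2166 of 2322 values on the same side of the threshold, 77 no longer past it, 78 newly past it and 1 called value reversed. Another 51 values, past the threshold neither as reported nor under the alternative, changed sign and are among the 2166, as Mcm3, Mcm5 and Gins1 did in K/L against Sox4 when their probe sets were averaged (-0.090, 0.047 and 0.035). The called value that reversed was Tyms in K/L against wild type, at 0.056 with the mean of all probe sets of the gene (adjusted p = 0.742), since its probe sets disagree. Calls were kept in all 18 alternatives for 12 of 19 genes in K/L against wild type, 17 of 22 in Sox4 against wild type, and 2 of 4 (Tk1 and Mcm10) in K/L against Sox4. In K/L against wild type, 6 genes were lower with an intensity trend in the variance. In K/L against Sox4, the count of higher genes was 2 with each array centred on its median, 1 under the stricter filter, 1 when all probe sets of a gene were averaged, 2 with the 6 leukaemic arrays alone and 2 with the trend, and the count of lower genes was 8 with the mean of all probe sets, 10 with the 6 leukaemic arrays and 8 with the trend; the cause was not tested. Leaving out 1 array at a time gave 13 to 21 higher and 2 to 4 lower genes in K/L against wild type, 17 to 26 higher and 0 lower in Sox4 against wild type, and 0 to 2 higher and 3 to 9 lower in K/L against Sox4. The counts of 21, 26 and 9 were those without wild type array 3. The same calls over all tested genes also rose in that fit, from 3689 to 3731, from 3420 to 3501 and from 1813 to 2245. Median centring moved the median of all genes from 0.05 to 0.15 in K/L against wild type and from 0.03 to 0.11 in K/L against Sox4, and the share of calls that were higher became 65.9% (57.0% as deposited) and 63.4% (51.1% as deposited). Deviations of same-numbered arrays of different groups correlated between -0.02 and 0.08, and those of differently numbered arrays between -0.05 and 0.05. With 3 arrays a group, these values do not settle whether same-numbered arrays were handled together. With the replicate number as a block, 14 genes were higher and 3 lower in K/L against wild type, 21 higher and 0 lower in Sox4 against wild type, and 0 higher and 3 lower in K/L against Sox4: Gins2, Rfc5, Rnaseh2a and Wdhd1 lost their calls.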
